A study of Mus musculus with 30 samples.

Results

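The regions described here are stretches of chromatin that were more accessible in mouse marrow-derived mesenchymal stem cells (MSCs) after 24 h of cytochalasin D (CytoD) than in untreated cells and than after 24 h of CK666. They were selected on the 24 h values themselves. A window was taken when its lowest level, a count scaled to the total of its library and written as CPM, in the 3 CytoD libraries was at least 1, and was over 1.4 times the highest CPM in the 3 control libraries and over 1.4 times the highest CPM in the 3 CK666 libraries. Of 305931 windows, 2519 met this rule (0.823%). Since the rule used the CytoD, CK666 and control libraries at 24 h, the levels in these 9 libraries and the size of the gain are given as a description, without a test.

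CytoD caps the fast-growing end of actin filaments and stops their extension, so that filaments in the cytoplasm are lost. The study reported that CytoD raised both the transport of actin into the nucleus and the filamentous actin there. CK666 acts elsewhere, on the Arp2/3 complex, which starts new branches on existing filaments. Monomeric actin can enter the nucleus, where it is part of chromatin remodelling complexes, and actin monomers hold back the SRF coactivators of the MRTF family. The activity of MRTF and SRF with CytoD was not measured here. ATAC-seq reads the accessibility of DNA, because the transposase cuts where nucleosomes do not cover it. Open chromatin away from gene starts often marks enhancers, where factors such as AP-1, a dimer of Fos and Jun proteins, and C/EBP, a family of leucine zipper factors used by fat cells, liver and myeloid cells, bind short DNA sequences.

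The study made 30 ATAC-seq libraries, in 10 groups of 3, by the Omni-ATAC protocol. At 24 h the groups were untreated MSCs, MSCs with CK666 and MSCs with CytoD. The labels give these cells as male and of the C57BL/6J strain, and the study's methods say that they were grown from the marrow of several mice. At 4 h the groups were untreated and CK666-treated MSCs, and untreated and CK666-treated NIH 3T3 cells, an established mouse fibroblast line to which the labels assign the same strain and sex. There was no CytoD group at 4 h. The 9 libraries with siRNA were left out by the rule and were not used here. Nothing in the labels says that the replicates came from separate cultures, so that the spread between them may be technical.

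Total counts ranged from 14071301 to 22352180 in the 24 h libraries. The MSC label was checked with the windows at the starts of 12 marker genes, of which 8 had a window. Their summed level, over 9 windows, was 155 to 169 CPM in the controls, 149.4 to 152 with CK666 and 142 to 150 with CytoD. The start of Twist1, a mesenchymal factor, was the highest of them and held 37.8 to 48.4 CPM in the 9 libraries. The lowest were those of Col1a1, with 1.64 to 3.14 CPM, and Prrx1, with 3.87 to 6.27 CPM. The starts of Lepr, Eng, Nt5e and Thy1 had no window. Of 10 hematopoietic and macrophage markers, 6 had a window, and their summed level was 21.0 to 24.7 CPM in the controls, 22.3 to 27.4 with CK666 and 29.2 to 36.2 with CytoD. The start of Fcer1g held 5.52 to 7.11 CPM in the controls and 10.7 to 13.8 with CytoD, and that of Lyz2 3.4 to 5.01 and 6.54 to 7.97. At Csf1r, Cd68 and Cd14 the CytoD and control libraries overlapped, and Ptprc, Itgam, Spi1 and Tyrobp had no window at their start. The part of these markers in the results below was not tested.

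DNA from 6 of the chosen windows is printed here, the ones with the largest margin, which is the lowest CytoD CPM divided by the highest CPM of the other 6 libraries. Each is the middle of its window, read from GRCm38, in the direction of the plus strand. Capitals mark matches to C/EBP (TTGCNNAA on either strand), to NFI (TTGGCA on either strand), to AP-1 (TGANTCA on either strand) and to the SRF CArG box. The nearest gene start names the window.
Ptpro, chr6:137235700-137235999 (plus strand): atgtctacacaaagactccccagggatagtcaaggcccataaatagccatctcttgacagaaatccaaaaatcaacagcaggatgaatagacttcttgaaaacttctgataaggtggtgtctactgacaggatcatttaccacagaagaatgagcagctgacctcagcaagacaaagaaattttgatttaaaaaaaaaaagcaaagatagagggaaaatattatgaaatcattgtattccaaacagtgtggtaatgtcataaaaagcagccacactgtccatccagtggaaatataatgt
Sema6d, chr2:124239933-124240232 (plus strand): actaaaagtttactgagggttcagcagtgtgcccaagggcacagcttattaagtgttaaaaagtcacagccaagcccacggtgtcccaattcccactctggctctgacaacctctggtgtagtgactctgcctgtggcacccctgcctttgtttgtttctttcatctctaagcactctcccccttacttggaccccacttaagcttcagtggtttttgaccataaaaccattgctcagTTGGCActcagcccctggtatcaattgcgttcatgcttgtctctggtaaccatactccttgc
Gtf2h1, chr7:46820822-46821121 (plus strand): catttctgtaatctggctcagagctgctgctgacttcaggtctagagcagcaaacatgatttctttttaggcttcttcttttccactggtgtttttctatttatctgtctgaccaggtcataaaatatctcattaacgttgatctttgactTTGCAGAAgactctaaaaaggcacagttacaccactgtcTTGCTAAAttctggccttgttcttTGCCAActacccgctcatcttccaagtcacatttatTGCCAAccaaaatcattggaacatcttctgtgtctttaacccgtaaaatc
Cryz, chr3:154533255-154533554 (plus strand): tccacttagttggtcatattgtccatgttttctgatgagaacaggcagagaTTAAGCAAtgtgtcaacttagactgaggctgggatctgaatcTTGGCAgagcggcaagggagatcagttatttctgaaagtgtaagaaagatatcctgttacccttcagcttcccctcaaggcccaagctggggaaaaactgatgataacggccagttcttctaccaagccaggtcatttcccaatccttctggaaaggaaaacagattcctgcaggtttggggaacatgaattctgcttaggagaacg
N4bp1, chr8:86967917-86968216 (plus strand): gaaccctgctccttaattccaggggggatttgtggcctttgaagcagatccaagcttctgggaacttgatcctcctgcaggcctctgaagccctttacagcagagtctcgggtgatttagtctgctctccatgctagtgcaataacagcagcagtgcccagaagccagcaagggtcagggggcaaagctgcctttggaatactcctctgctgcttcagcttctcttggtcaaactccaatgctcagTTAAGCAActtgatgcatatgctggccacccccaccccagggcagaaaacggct
Msrb3, chr10:120890128-120890427 (plus strand): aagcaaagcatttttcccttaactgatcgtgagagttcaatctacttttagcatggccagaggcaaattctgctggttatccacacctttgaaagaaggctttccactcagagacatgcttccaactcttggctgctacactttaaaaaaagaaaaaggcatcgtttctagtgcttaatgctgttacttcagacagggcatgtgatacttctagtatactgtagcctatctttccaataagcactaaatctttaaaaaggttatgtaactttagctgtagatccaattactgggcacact
The window near Ptpro is intergenic and 16150 bp from the start of that gene, which encodes a receptor tyrosine phosphatase. Those named for Sema6d (a semaphorin), Gtf2h1 (a subunit of TFIIH) and Msrb3 (a methionine sulfoxide reductase) lie in introns of these genes. The windows near Cryz and N4bp1 are intergenic, 63051 and 82535 bp from the gene start. C/EBP matches stand in the printed stretches of Gtf2h1, Cryz and N4bp1, and no AP-1 match stands in any of the 6.

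At the Ptpro window the controls held 0.850, 1.16 and 1.11 CPM, the CK666 libraries 0.979, 1.13 and 0.870 CPM, and the CytoD libraries 4.19, 4.2 and 4.83 CPM. The CK666 libraries lay among the controls, and the CytoD libraries were all far above both. The log2 ratio of the mean CytoD level to the mean control level was 2.08, and that of CK666 to control was -0.07. This window had the largest margin of all, 3.6.

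In the Sema6d intron the controls held 1.84, 1.70 and 1.89 CPM, the CK666 libraries 1.91, 2.12 and 2.35, and the CytoD libraries 10.9, 7.81 and 8.43. Here the CK666 libraries were all slightly above the controls, while the CytoD libraries stood apart from both. The gain with CytoD was 2.32 on the log2 scale.

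The window near Cryz, a quinone reductase gene, was nearly closed in untreated cells. Its controls held 0.212, 0.313 and 0.139 CPM, its CK666 libraries 0.343, 0.329 and 0.512 CPM and its CytoD libraries 1.63, 2.40 and 1.75 CPM. The log2 ratio was 3.12, and such a value rests on few reads in the controls. The other windows among the 10 with the largest margin were named for Gtf2h1, N4bp1, Msrb3, Map4, Gimap3, Actn2 and Cwc27, with log2 ratios of 1.74 to 2.92. Map4 encodes a microtubule-associated protein and Actn2 a muscle alpha-actinin that crosslinks actin filaments. None of these 10 windows contains a gene start.

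**Figure D1:**
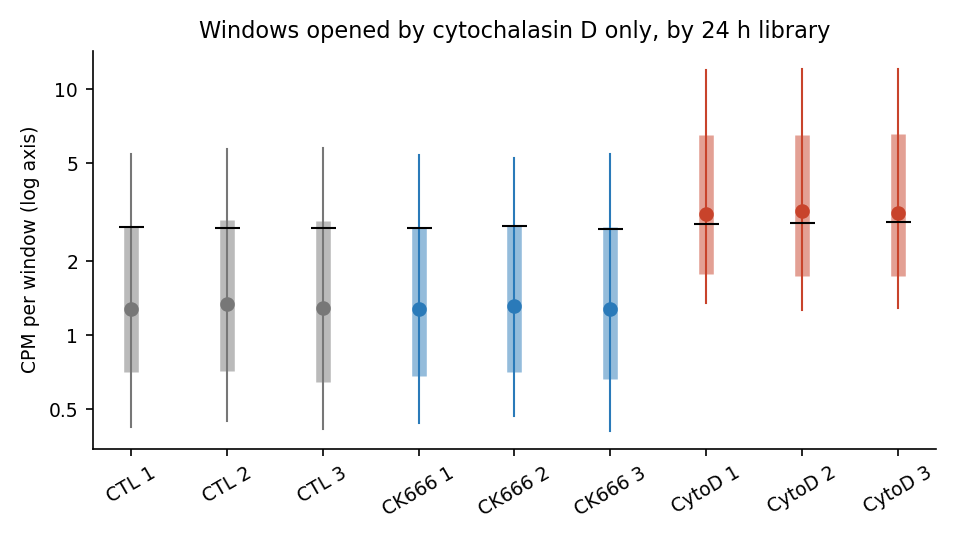
CPM per window on a log axis in each of the 9 libraries at 24 h, for the 2519 windows opened by CytoD only. Points are medians, thick bars the range from the 25th to the 75th percentile and thin lines the range from the 10th to the 90th percentile, and the black dash is the median over the 140978 windows whose lowest CytoD CPM was at least 1. The medians of the 6 control and CK666 libraries lie between 1.27 and 1.34, well below the black dash, and those of the CytoD libraries lie between 3.13 and 3.20, slightly above it.

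Over all 2519 windows the median level was 1.27 to 1.34 CPM in the control libraries, 1.27 to 1.32 CPM with CK666 and 3.13 to 3.20 CPM with CytoD. The windows took 0.605% to 0.644% of all counts in the controls, 0.599% to 0.603% with CK666 and 1.37% to 1.39% with CytoD. By the rule, the CytoD libraries overlap neither of the other groups at any of these windows. The median over the chosen windows of the mean control CPM was 1.29, close to the 1.11 of all 305931 windows. The 140978 windows whose lowest CytoD CPM was at least 1, which are called the comparison windows below, had medians of 2.72 to 2.76 CPM in the control libraries, and the rule itself holds the control level of the chosen windows below that of CytoD.

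The gain was mostly moderate. The log2 ratio of mean CytoD to mean control CPM ranged from 0.55 to 3.17, with a median of 1.24, or 2.37-fold. In 1943 windows (77.1%) the level more than doubled, in 124 (4.92%) it rose over 4-fold, and in 4 over 8-fold. The margin had a median of 1.56, was over 2 in 234 windows and over 3 in 9.

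**Figure D2:**
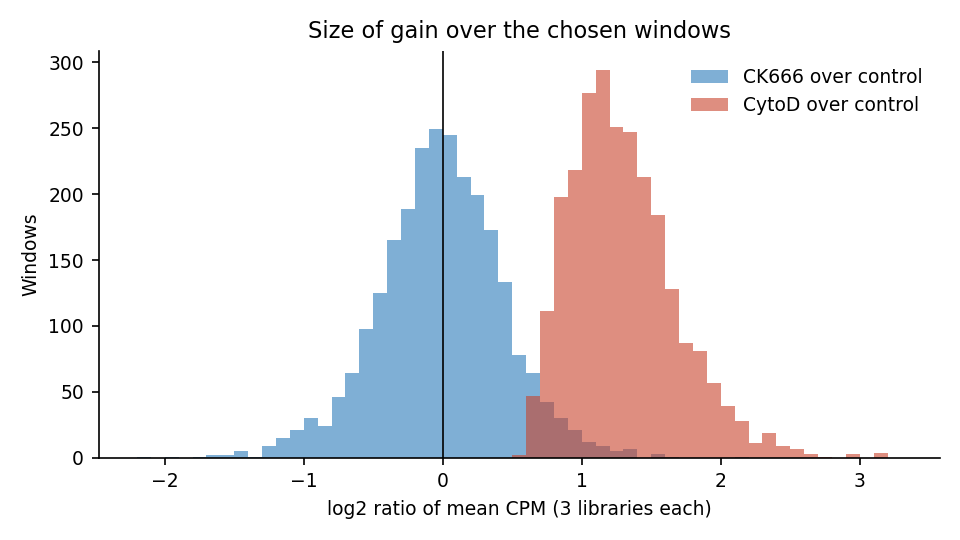
Number of chosen windows by the log2 ratio of the mean CPM of 3 treated libraries to the mean CPM of 3 controls, for CytoD (red) and CK666 (blue). The CytoD values start at 0.55 because of the rule and have a median of 1.24, and the CK666 values spread around a median of -0.01.

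The same windows with CK666 spread around the control level. The median log2 ratio of CK666 to control was -0.01, with the 10th percentile at -0.56 and the 90th at 0.52. All 3 CK666 libraries lay below all 3 controls in 335 windows (13.3%) and above them in 268 (10.6%), against 17.0% and 15.9% of the comparison windows. CK666 was more than 2-fold below the control mean in 58 windows and more than 2-fold above it in 38. The rule sets no lower limit on CK666, and it caps the CK666 level at the CytoD level divided by 1.4, so these windows include some that CK666 also raised. One of the windows near Cxcl15, for example, held 4.60, 4.61 and 4.30 CPM in the controls, 10.9, 8.84 and 10.4 with CK666 and 15.4, 15.7 and 17.2 with CytoD. There the CK666 libraries were all above the controls, and the CytoD libraries above both. Against the control alone, 7140 windows would have passed, and 4621 of these were dropped by the limit on CK666.

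Windows on either side of the limit of 1.4 serve as examples. Just inside it, the Foxp1 intron held 1.2, 1.43 and 1.02 CPM in the controls, 0.881, 0.988 and 0.973 with CK666 and 2.70, 2.2 and 2.0 with CytoD. Just outside it, a window in an intron of Tmeff2 held 1.98, 1.66 and 1.34 CPM, 1.42, 0.800 and 1.48 CPM, and 3.27, 2.80 and 2.78 CPM in the same groups. Windows near Lmo4 and Apela lay just inside and windows near Rab28 and Plxna1 just outside, all with a margin of 1.4. Their log2 ratios of CK666 to control differed, at -0.51, 0.92, -1.61 and -0.96 in this order.

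The share of windows chosen differed with the level in untreated cells. Of 941 comparison windows with a control mean under 0.5 CPM, 300 were chosen (31.9%), and of 41900 with a control mean of at least 5 CPM, 304 were chosen (0.726%). The median gain was 1.75 on the log2 scale in the lowest of 5 bands and 0.91 in the highest. The choice of windows fixes much of both orders, because every comparison window has at least 1 CPM in each CytoD library, so that one with a control mean under 0.5 CPM enters only if CytoD is more than 2-fold higher. The 5 most open chosen windows with CytoD lay in an exon of Adamts7, near Zfp712, in a Cdc73 intron nearest to B3galt2, near Serpinb5 and in an intron of Opcml. At the Zfp712 window, 57532 bp from the start of that zinc finger gene, the controls held 22.6, 24.2 and 22.5 CPM, the CK666 libraries 26.0, 26.5 and 26.8 CPM and the CytoD libraries 63.8, 66.5 and 65.4 CPM. All CK666 libraries were a little above the controls, and all CytoD libraries were over 2-fold above both. At the Adamts7 window, in a metalloprotease gene, the controls held 45, 41 and 40.3 CPM, the CK666 libraries 35.2, 32.3 and 28.5 CPM and the CytoD libraries 71.4, 64.7 and 68.1 CPM. Here CK666 lay below the controls and CytoD above them.

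Over all windows, the quasi-likelihood test of edgeR called 2944 gains with CytoD at 24 h among 300323 windows tested, or 0.98%. To be called, a window needed a log2 fold change over 1 and a Benjamini-Hochberg adjusted p below 0.01. All 2519 chosen windows were tested and 1054 of them (41.8%) were called. As the rule used the same libraries, nothing is read from this share. The median fold change of the chosen windows in this fit was 1.16 on the log2 scale, with a median standard error of 0.30. The rule's CPM values were scaled by column totals. That scaling and TMM, which the fit uses, differed by a nearly constant amount, since the median log2 ratio of CytoD to control over 173417 windows with a mean of at least 1 CPM was 0.04 by column totals and -0.06 by TMM.

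Whether windows chosen in this way were also open in libraries the choice did not use was examined by leaving out all 3 libraries of 1 replicate number, applying the rule to the rest, and reading the left-out libraries. The numbers of windows chosen were 8743, 8833 and 7941 without number 1, 2 and 3. The left-out CytoD library was above both the left-out control and the left-out CK666 library in 68.0%, 65.5% and 76.5% of them, against 37.7%, 37.9% and 39.9% of the windows that met only the minimum of 1 CPM. It was over 1.4 times both in 44.2%, 42.3% and 50.2%, against 12.7%, 12.2% and 14.0%. The median log2 ratio of the left-out CytoD to the left-out control was 0.58, 0.60 and 0.71, against 0.02, 0.05 and 0.06. In each round the windows chosen were thus more often higher with CytoD in the left-out libraries. All 2519 windows are in each of these sets, and by the full rule they pass in the left-out libraries too. The shares therefore describe the larger sets and are no check of the 2519 windows. These sets are larger than the 2519 windows, because 2 libraries a group let more windows pass than 3.

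The place of the chosen windows did not enter the rule. Only 41 of them (1.63%) contained the start of a protein-coding gene, against 9.47% of the comparison windows, 0.821% of the 1218 windows that meet the mirror rule for closing with CytoD only and 1.03% of the 3965 that meet the rule for opening with CK666 only. The 95% exact binomial interval of the share, which covers counting error only, was 1.17% to 2.2%. Introns held 1178 (46.8%), intergenic sequence 1209 (48.0%), coding exons 42 and UTRs 49. The corresponding shares of the comparison windows were 45.7% in introns and 41.1% in intergenic sequence. From the window to the nearest gene start the median distance was 36877 bp, against 22129 bp for the comparison windows, 36840 bp for the windows closed with CytoD only and 35824 bp for those opened with CK666 only. Over all 305931 windows, 4.93% contained a gene start and the median distance was 27643 bp. In distance all 3 sets of changed windows were alike, and lay farther from gene starts than the comparison windows and than all windows.

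Window length ranged from 500 to 7334 bp. The median length was 670 bp, against 760 bp for the comparison windows and 651 bp for all windows. Median GC content was 43.9% in the chosen windows, 46.5% in the comparison windows and 45.9% in all windows. The X chromosome held 99 of them (3.93%), with 2.55% of the comparison windows, and 2.76% of its comparison windows were chosen. On chromosome 3 the share was 2.58%, on chromosome 1 it was 2.09%, and on chromosome 11, the lowest of the autosomes, it was 1.28%, beside 1.79% of all comparison windows.

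The 41 windows at gene starts belong to genes of many kinds. The upstream DNA of the first 3 by margin, inside the window and in the direction of the gene, is given as an example. Counts are per window and do not place the gain within it.
Acaca, chr11:84172949-84173121 (plus strand): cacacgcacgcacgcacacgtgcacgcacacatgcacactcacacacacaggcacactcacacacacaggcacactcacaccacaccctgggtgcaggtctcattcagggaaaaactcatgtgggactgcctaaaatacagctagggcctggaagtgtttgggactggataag
S100a8, chr3:90668728-90668977 (plus strand): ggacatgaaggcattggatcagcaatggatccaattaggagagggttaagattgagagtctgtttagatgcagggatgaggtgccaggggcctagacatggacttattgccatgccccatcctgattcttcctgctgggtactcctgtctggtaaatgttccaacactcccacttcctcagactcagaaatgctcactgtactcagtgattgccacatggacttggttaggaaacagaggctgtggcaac
Olfm5, chr7:104164832-104165081 (minus strand): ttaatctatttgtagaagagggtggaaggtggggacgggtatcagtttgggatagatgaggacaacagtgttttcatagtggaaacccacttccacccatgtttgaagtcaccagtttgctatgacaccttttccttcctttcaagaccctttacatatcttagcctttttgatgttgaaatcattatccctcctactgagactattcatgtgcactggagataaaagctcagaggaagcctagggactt
Acaca encodes acetyl-CoA carboxylase, the first step of fatty acid synthesis. S100a8 encodes a calcium-binding protein of neutrophils and monocytes, and Olfm5 an olfactomedin protein. The printed Acaca stretch is mostly a CA repeat, and none of the 3 stretches holds one of the marked sequences. Outside the printed bases, the middle of the Acaca window holds C/EBP and NFI matches and that of the Olfm5 window a C/EBP match.

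At the start of S100a8 the controls held 4.74, 4.74 and 6.24 CPM, the CK666 libraries 8.18, 7.86 and 8.09 CPM and the CytoD libraries 16.8, 15.9 and 17.9 CPM. All CK666 libraries were above the controls there, and all CytoD libraries were above both, with log2 ratios of 0.62 and 1.69. At the Acaca start the controls held 1.27, 2.24 and 1.89 CPM, the CK666 libraries 2.45, 2.68 and 1.89 CPM and the CytoD libraries 5.83, 5.54 and 7.14 CPM. There CK666 overlapped the controls, and CytoD did not.

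Hsd11b1 encodes the enzyme that regenerates active glucocorticoid, and the window at its start was the most open of the 10 named by the rule. It held 13.5, 17.9 and 17.2 CPM in the controls, 16.9, 16.1 and 14.4 with CK666 and 31.0, 33.1 and 30.3 with CytoD. Control and CK666 libraries overlapped, and the CytoD libraries lay above all of them. The other starts in this group were those of Olfm5, Mettl21e, Amy1 (amylase), Olig1 (a neural transcription factor), Tdrd1 (a germ line protein), Gbp6 (an interferon-induced GTPase) and Gstz1, with log2 ratios of 1.09 to 1.99. Those of Tdrd1 and Gstz1 were at 0.566 CPM or less in every control and rest on few reads.

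Short DNA sequences known to bind transcription factors were counted in the middle 500 bp of every window. A match to C/EBP was present in 1032 of the 2519 windows (41.0%), against 23.0% of the comparison windows, and a match to AP-1 in 385 (15.3%), against 28.5%. Without the windows that contain a gene start, C/EBP matches were in 40.9% of the chosen windows, 23.9% of the comparison windows, 17.1% of those closed with CytoD only, 24.5% of those opened with CK666 only and 21.9% of all windows. For AP-1 the shares in the same order were 15.3%, 30.6%, 62.7%, 36.6% and 27.9%. Windows opened by CytoD only thus held C/EBP matches more often, and AP-1 matches less often, than each of these sets, while the windows that CytoD closed held AP-1 matches most often. The 95% exact binomial intervals of the shares over all 2519 windows were 39.0% to 42.9% for C/EBP and 13.9% to 16.7% for AP-1. Both changed sets used for comparison have a GC content close to that of the chosen windows, with medians of 44.0% and 43.3%. A match is a description of the letters and not a bound site.

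The C/EBP matches were concentrated at the centre of the window. There were 8.38 and 9.37 matches per 100 windows in the 50 bp to the left and right of the centre, and 2.34 and 2.42 in the outermost 50 bp, which start 450 bp from the centre. In the comparison windows the same bins held 3.21, 3.30, 2.07 and 2.09, and in the windows closed with CytoD only 1.56, 1.23, 2.22 and 2.38. AP-1 matches had no such peak in the chosen windows, with 2.14 and 2.02 at the centre and 1.27 and 1.39 at the edges, against 22.7 and 24.9 at the centre of the windows closed with CytoD only. The most frequent forms of the C/EBP match in the chosen windows were TTGCAAAA with 182 sites, TTGCTCAA with 169 and TTGCACAA with 166.

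**Figure D3:**
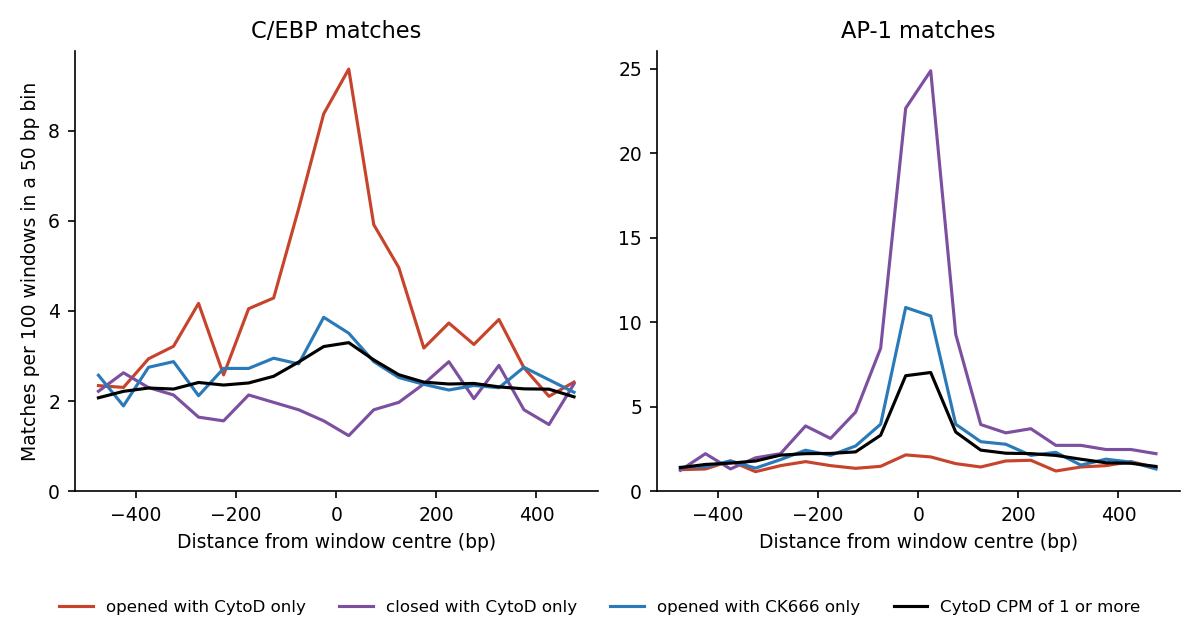
Matches per 100 windows in bins of 50 bp, against the distance from the window centre in bp, for C/EBP (left) and AP-1 (right). Red are the windows opened by CytoD only, purple those closed by CytoD only, blue those opened by CK666 only and black the comparison windows. The red line peaks at 9.37 at the centre for C/EBP and lies between 1.15 and 2.14 for AP-1, where the purple line reaches 24.9.

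To show such sites in their surroundings, 120 bp are printed of 4 windows with a C/EBP match within 25 bp of the centre, the first 4 by margin outside the 6 above and outside UTRs, a choice made after the motif counts were seen. Capitals mark the same sequences as before.
Amelx, chrX:169230406-169230525 (plus strand): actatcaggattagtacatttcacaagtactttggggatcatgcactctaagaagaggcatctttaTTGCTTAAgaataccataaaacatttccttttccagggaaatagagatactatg
Pkn2, chr3:143040849-143040968 (plus strand): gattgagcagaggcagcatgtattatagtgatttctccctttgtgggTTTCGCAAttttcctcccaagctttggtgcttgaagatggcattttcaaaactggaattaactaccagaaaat
Patj, chr4:98577394-98577513 (plus strand): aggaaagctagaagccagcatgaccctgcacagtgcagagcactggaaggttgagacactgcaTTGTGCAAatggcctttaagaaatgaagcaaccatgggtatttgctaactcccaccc
Ninl, chr2:150986500-150986619 (plus strand): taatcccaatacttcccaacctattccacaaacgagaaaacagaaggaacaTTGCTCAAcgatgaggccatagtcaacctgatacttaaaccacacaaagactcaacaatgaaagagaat
The windows of Patj and Ninl lie in introns of these genes, that of Amelx lies in an intron of Arhgap6, and that of Pkn2 is intergenic.

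The share with a C/EBP match was compared across the size of the gain. In 4 equal groups of the chosen windows by log2 ratio, from the smallest gain to the largest, 39.0%, 38.1%, 41.3% and 45.4% held one, and AP-1 matches stood in 19.8%, 12.9%, 14.3% and 14.1%. Of the comparison windows with a C/EBP match and none to AP-1, 3.89% were chosen, of those with AP-1 and no C/EBP match 0.767%, of those with both 1.55% and of those with neither 1.6%. Among the other sequences, NFI (TTGGCA) stood in 35.2% of the chosen windows without a gene start, against 28.5% of such comparison windows, TEAD (GGAATG) in 27.2% against 30.6%, RUNX (TGTGGT) in 44.0% against 41.1%, the SP and KLF box (GGGCGG) in 4.84% against 9.79%, and the CTCF core (AGGGGGC) in 4.40% against 7.37%. With a limit of 1.2 in the rule 37.4% of the windows held a C/EBP match and with a limit of 2 46.6%. With a minimum CytoD level of 0.5 CPM, where the median gain was larger (1.34), the share was 36.0%, and with a minimum of 2 CPM, where the gain was smaller (1.16), it was 45.7%, so that the share did not follow the gain in one direction. When 1 CytoD library was left out, which more than doubled the number of windows, the share was 30.8% to 33.1%.

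The genes of the C/EBP family themselves were not among the nearest genes named by the rule, and were looked up after these counts. At the start of Cebpb the controls held 24.5, 26.9 and 25.5 CPM, the CK666 libraries 35.4, 33.3 and 38.4 CPM and the CytoD libraries 29.7, 32.1 and 30.4 CPM. All CytoD and all CK666 libraries were above the controls there. With CytoD the edgeR log2 fold change was 0.18 (adjusted p = 0.211), and with CK666 it was 0.47 (adjusted p = 2.76e-05). At the starts of Cebpa, Cebpd, Cebpe, Cebpg and Ddit3 the CytoD fold changes lay between -0.29 and 0.44, and none passed the call. These values are accessibility at the gene start, and the expression of these genes was not examined here.

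The CArG box bound by SRF was not more frequent, at 2.38% of the chosen windows without a gene start and 2.78% of such comparison windows. Stretches of 120 bp around the box are shown for the 3 windows with the largest margin among those that have one, since SRF is the factor most directly tied to actin monomers.
Rasa1, chr13:85571074-85571193 (plus strand): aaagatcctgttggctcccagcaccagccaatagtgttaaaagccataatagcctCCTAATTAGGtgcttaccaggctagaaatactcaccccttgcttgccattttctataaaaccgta
Trabd2b, chr4:114564607-114564726 (plus strand): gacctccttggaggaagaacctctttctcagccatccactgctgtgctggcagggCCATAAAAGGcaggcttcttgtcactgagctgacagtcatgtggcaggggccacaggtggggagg
Trmt5, chr12:73281389-73281508 (plus strand): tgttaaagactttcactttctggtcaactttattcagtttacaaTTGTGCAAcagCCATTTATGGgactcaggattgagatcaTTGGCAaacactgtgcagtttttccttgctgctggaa
The window near Rasa1 is intergenic, that of Trabd2b lies in an intron and that of Trmt5 overlaps a coding exon. The Rasa1 window held 1.13, 1.21 and 2.03 CPM in the controls, 0.930, 1.51 and 1.54 with CK666 and 6.04, 5.67 and 6.73 with CytoD. Control and CK666 libraries overlapped, and CytoD was above both.

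For lists of genes tied to actin, the counts of chosen windows were small, so that their shares have little precision. A window was given to a gene when its start was the nearest and within 50000 bp. Of the comparison windows at 31 target genes of the actin, MRTF and SRF pathway, 4 of 345 were chosen (1.16%), of those at 22 YAP and TEAD target genes 4 of 367 (1.09%), of those at 43 genes of actin assembly, monomers and severing 6 of 481 (1.25%), and of those at 32 integrin and focal adhesion genes 6 of 450 (1.33%). The share over all comparison windows was 1.79%. At 11 genes of the AP-1 family 1 of 120 was chosen, near Jun, and at 36 genes of the BMP and TGF-beta pathways 2 of 414, near Bmpr1b and Smad7. None of the 93 comparison windows at 11 osteogenic genes was chosen, and a share over so few windows has little precision. Over all 93 the median log2 ratio to control was 0.21 with CytoD and -0.02 with CK666. For all comparison windows it was 0.09 with CytoD. The osteogenic list holds markers whose gene expression the study itself showed for the same treatments at 24 h. It is therefore not independent of the study's results.

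Pdlim5, which encodes a PDZ and LIM protein of the actin cytoskeleton, had 2 of the 4 windows of the SRF list. At the stronger, 15146 bp from its start, the controls held 2.97, 2.33 and 1.99 CPM, the CK666 libraries 2.50, 3.62 and 3.84 CPM and the CytoD libraries 9.45, 8.87 and 9.35 CPM. Control and CK666 libraries overlapped, and CytoD was above both. In a Mical3 intron, in a gene whose product oxidizes actin filaments, the controls held 5.52, 5.50 and 6.28 CPM, the CK666 libraries 4.70, 4.70 and 6.04 CPM and the CytoD libraries 12.6, 13.1 and 12.8 CPM. A window 16002 bp from the start of F3 (tissue factor) held 1.70, 2.42 and 2.40 CPM, 1.86, 1.41 and 2.25 CPM, and 5.19, 6.01 and 6.48 CPM in the same order. At both, the control and CK666 libraries overlapped and the CytoD libraries stood above them.

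Of the marker lists, that of hematopoietic and macrophage genes had 3 chosen windows of 40 (7.5%), MSC markers had 3 of 121 (2.48%, near Lepr and in Col1a1), and endothelial markers none of 28. A share over 40 windows has little precision. The start of Adgre1, the gene of the macrophage antigen F4/80, held 0.708, 0.761 and 1.02 CPM in the controls, 0.979, 1.08 and 1.64 with CK666 and 3.34, 2.67 and 2.31 with CytoD. Control and CK666 libraries overlapped slightly, and CytoD was above both. In an intron of Spi1, which encodes the myeloid factor PU.1, the controls held 2.05, 2.73 and 1.85 CPM, the CK666 libraries 2.94, 3.53 and 2.41 CPM and the CytoD libraries 6.18, 5.87 and 5.19 CPM. Over all 40 comparison windows of this list the median log2 ratio was 0.36 with CytoD and 0.03 with CK666, against 0.09 and 0.00 for all comparison windows. More cells of another type and more accessibility per cell cannot be told apart in bulk libraries.

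Lepr, a marker of marrow stromal cells, had a window 8931 bp from its start with 1.98, 1.25 and 1.85 CPM in the controls, 1.08, 1.22 and 1.48 with CK666 and 4.48, 3.6 and 4.83 with CytoD. Control and CK666 libraries overlapped there, and all CytoD libraries lay above them.

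Within 50000 bp of a gene start lay 1462 of the chosen windows, shared among 1295 genes, and 1057 lay farther away. Most of these genes, 1152, had a single chosen window, 125 had 2 and 18 had 3 or more. Ptgfr, the receptor of prostaglandin F, had the most, 5 of its 16 comparison windows. In its strongest by level, in an intron, the controls held 10.6, 11.8 and 13.1 CPM, the CK666 libraries 15.5, 15.4 and 16.4 CPM and the CytoD libraries 25.4, 24.5 and 26.9 CPM. CK666 was above the controls in this window, while the median log2 ratio of CK666 over the 5 windows was -0.50, with values of both signs among them. With CytoD their log2 ratios were 1.05 to 1.52.

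Rgs13 (a regulator of G protein signalling), Cxcl15 (a neutrophil-attracting chemokine), Adcy10 (the soluble adenylyl cyclase) and Ralgapa2 (a GTPase activator) had 4 chosen windows each. The log2 ratios were 0.72 to 1.92 at Rgs13, 1.31 to 1.84 at Cxcl15, 0.88 to 1.37 at Adcy10 and 0.94 to 1.15 at Ralgapa2. Lancl1, Clec2d, Macc1, Phex and Lrig3 were the next by the rule, with 3 windows each.

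Some chosen windows lay close to each other along the chromosomes. Another chosen window lay within 50000 bp of 640 of them (25.4%), in 283 runs, of which 54 held at least 3 windows and 13 at least 4. The same share was not computed for other windows, so whether the chosen windows are more grouped than these was not tested. The longest run had 8 windows in 210034 bp on chromosome 3, from 142410842 to 142620875, between Pdlim5 and the cluster of guanylate-binding proteins Gbp5, Gbp7, Gbp3, Gbp2b and Gbp2, which are interferon-induced GTPases. The median log2 ratio of these 8 windows was 1.19 with CytoD and 0.01 with CK666, and over all 30 comparison windows in the run it was 0.50 with CytoD. Another run, of 6 windows, spanned 78058 bp around Ptgfr, and the next held 5 windows at Cxcl5 and Cxcl15.

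Windows that were not chosen but lay close to a chosen one were also a little higher with CytoD. Among the 964 other windows within 2000 bp with a mean of at least 1 CPM, the median log2 ratio of CytoD to control was 0.20, and 67.3% were above 0. The median fell to 0.14 between 2000 and 5000 bp, to 0.10 between 10000 and 25000 bp and to 0.01 beyond 100000 bp, where 51.1% were above 0. Over all 171507 such windows it was 0.03. With CK666 the medians stayed between -0.03 and 0.01 at every distance. Neighbours share libraries with the chosen windows and are not independent of them.

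**Figure D4:**
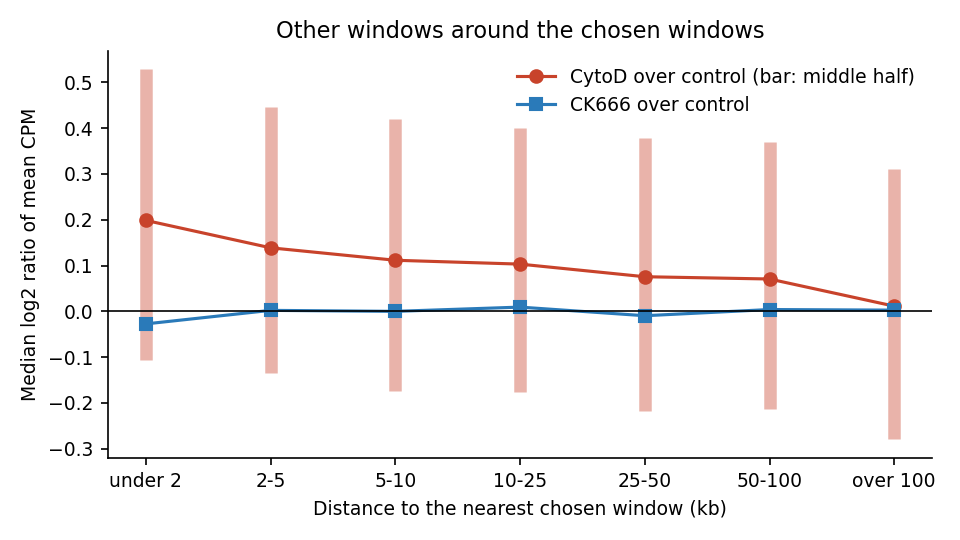
Median log2 ratio of mean CPM to control, against the distance in kb to the nearest chosen window, for windows that were not chosen and had a mean of at least 1 CPM. Red is CytoD, with bars for the range from the 25th to the 75th percentile, and blue is CK666. The red medians fall from 0.20 in the nearest bin to 0.01 in the farthest, and the blue medians stay between -0.03 and 0.01.

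The 4 h libraries took no part in the choice, so that the same places can be tested there. A window of the 4 h table overlapped 1836 of the 2519 chosen windows (72.9%), in 1834 different windows, against 93.8% of the comparison windows. The other 683 had no window at 4 h, where no library had CytoD. Median levels at the matched windows were 1.08 to 1.16 CPM in untreated MSCs, 1.33 to 1.37 CPM in MSCs with CK666, 0.575 to 0.646 CPM in untreated NIH 3T3 cells and 0.717 to 0.897 CPM in NIH 3T3 cells with CK666. In both cell types the medians of the CK666 libraries were thus above all of those of the controls. The windows that overlap comparison windows had medians of 2.57 to 2.6 CPM in untreated MSCs and 2.72 to 2.74 with CK666, and in NIH 3T3 cells their medians overlapped, at 1.72 to 1.87 and 1.84 to 2.0 CPM.

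**Figure D5:**
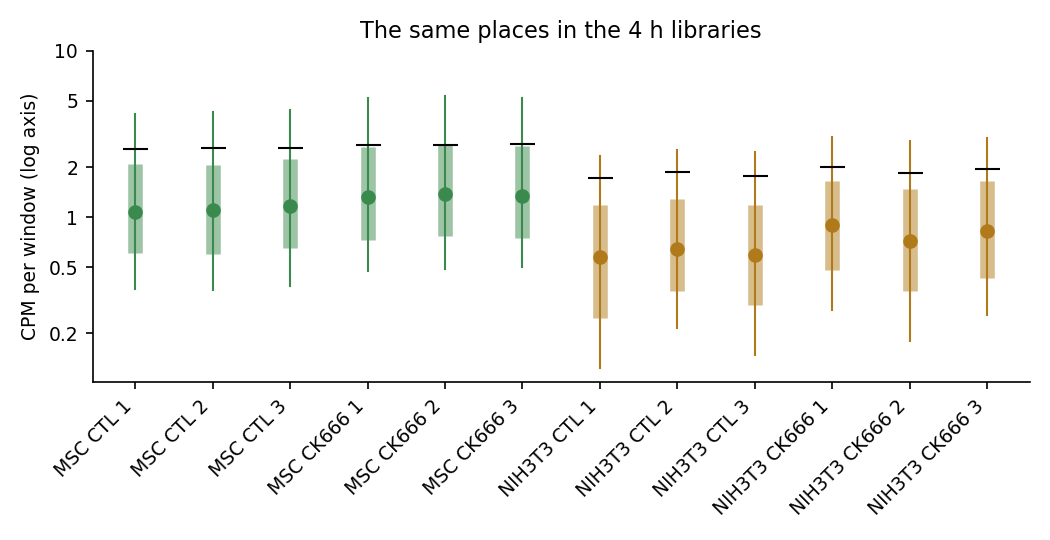
CPM per window on a log axis in the 12 libraries at 4 h, for the 1834 windows that overlap a chosen window. Points are medians, thick bars the range from the 25th to the 75th percentile, thin lines the range from the 10th to the 90th percentile, and the black dash is the median over the windows that overlap a comparison window. MSC medians are 1.08 to 1.16 without and 1.33 to 1.37 with CK666, and NIH 3T3 medians are 0.575 to 0.646 without and 0.717 to 0.897 with CK666.

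In MSCs at 4 h, CK666 was called higher in 36 of 1793 tested chosen windows (2.01%) and lower in 1, with the same edgeR test and limits. Over all windows tested 0.59% were called with a gain and 0.427% with a loss, and of those that overlap a comparison window 0.847% and 0.303%. The median log2 fold change of the chosen windows was 0.27, with 75.3% above 0, against 0.03 and 54.1% of the windows that overlap comparison windows and a median of 0.00 over all. Few single windows thus passed, although most of them leaned upwards. All 3 CK666 libraries were above all 3 controls in 574 of the 1834 windows (31.3%) and below them in 47 (2.56%), against 18.5% and 12.1% of the windows that overlap comparison windows.

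Weakly open windows leaned upwards with CK666 at 4 h whether chosen or not. In MSCs with a control level under 0.5 CPM the median log2 fold change was 0.60 in 245 chosen windows and 0.54 in 4834 others, while at 1 to 2 CPM it was 0.25 in 504 and 0.08 in 28773, at 2 to 5 CPM 0.23 in 341 and 0.01 in 35406, and at 5 CPM or more 0.23 in 143 and -0.04 in 39197. These bands were set on the same control libraries, which by itself raises the fold change of the lowest band. From 1 CPM upwards the chosen windows were thus higher than the others of the same level. Chosen windows with a C/EBP match had a median of 0.31 (796 windows) and those without 0.24 (997 windows). The windows closed with CytoD only had a median of -0.08, and those opened with CK666 only at 24 h, 701 of 3515 of which were called with a gain at 4 h, a median of 0.65.

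The called gain in MSCs with the largest fold change was in an intron of Macc1, a gene named for its link to colon cancer metastasis. There the 4 h controls held 0.405, 0.466 and 0.239 CPM and the CK666 libraries 1.11, 1.43 and 1.34 CPM, with a log2 fold change of 1.77 ± 0.35 (SE, n = 3, edgeR adjusted p = 0.00014). All CK666 libraries were above all controls. At 24 h the same window held means of 2.40 CPM in the controls, 2.95 with CK666 and 7.75 with CytoD. The next largest gains were in an intron of Fut8 (1.76 ± 0.43) and near Ddhd1 (1.65 ± 0.39). The single loss overlapped a window 20441 bp from the start of Zfp184, where the 4 h controls held 2.60, 2.67 and 2.12 CPM and the CK666 libraries 0.506, 0.400 and 0.374 CPM, with a fold change of -2.54 ± 0.28 (edgeR adjusted p = 3.31e-11). When the 4 h window had to cover at least 50% of the chosen window, this match and with it the only loss dropped out.

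In NIH 3T3 cells CK666 was called higher in 43 of 1367 tested chosen windows (3.15%) and lower in 15 (1.10%). Over all windows tested 1.87% were called with a gain and 1.67% with a loss. The median log2 fold change was 0.28, with 69.3% above 0, against -0.03 and 47.6% of the windows that overlap comparison windows. Here the chosen windows stood above others of the same level mainly between 1 and 5 CPM. At a control level of 0.5 to 1 CPM the median was 0.25 in the chosen windows and 0.24 in the others, at 1 to 2 CPM 0.20 and 0.03, at 2 to 5 CPM -0.02 and -0.15 and at 5 CPM or more -0.18 and -0.20. Without control replicate 1, or without CK666 replicate 3, 23 gains were left, and with DESeq2 25. Scaled by column totals, 55 gains and 10 losses were called among the chosen windows, over a background of 2.42% and 1.06%. The difference between the effects in MSCs and NIH 3T3 cells was not tested.

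The called gain with the largest fold change in NIH 3T3 cells was near Podxl (2.52 ± 0.70). It was followed by one near Has2, the gene of a hyaluronan synthase, where the controls held 0.164, 0.431 and 0.148 CPM and the CK666 libraries 1.66, 1.43 and 1.17 CPM (2.37 ± 0.47, SE, n = 3, edgeR adjusted p = 0.000146). In MSCs the same window held 0.743, 1.13 and 0.752 CPM without and 0.790, 0.629 and 0.686 CPM with CK666. NIH 3T3 libraries with CK666 were all above their controls, and the MSC libraries overlapped. The largest loss was in an intron of Wwox, an oxidoreductase gene, with 3.98, 3.12 and 3.92 CPM in the controls and 0.828, 1.12 and 0.907 CPM with CK666 (-2.03 ± 0.26, edgeR adjusted p = 1.05e-08).

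Untreated MSCs were compared with untreated NIH 3T3 cells to see in which of these cell types the chosen places were open before treatment. Of 1721 tested chosen windows, 823 (47.8%) were called higher in MSCs and 111 (6.45%) lower. Over all windows tested 18.6% were higher and 19% lower, and of those that overlap comparison windows 34.0% were higher and 6.96% lower, since these were defined in MSCs. The median log2 fold change was 1.13, against 0.56 for windows that overlap comparison windows. Those with a C/EBP match had a median of 1.23 and those without 1.06. In an intron of Zc2hc1a the untreated MSCs held 2.09, 2.0 and 2.36 CPM at 4 h, while all 6 NIH 3T3 libraries had no count. This allows up to 0.123 CPM in the shallowest untreated NIH 3T3 library and 0.207 CPM in the shallowest with CK666. Why these libraries had no count there was not tested. In the opposite direction, an intron of Exoc3l4 held 0.473, 0.633 and 0.137 CPM in untreated MSCs and 11.2, 11.4 and 10.8 CPM in untreated NIH 3T3 cells (-4.54 ± 0.21, SE, n = 3, edgeR adjusted p = 6.1e-26).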

How the data were processed

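ATAC-seq was made by the Omni-ATAC protocol from 50000 cells a library. Per the study's methods, the authors ran PEPATAC, with bowtie2 as the aligner and MACS2 as the peak caller, and merged the peaks of all replicates. Their versions are not given, and the build, mm10, comes from the submitters' processing notes. The values the authors deposited are raw counts per window, in one table for 24 h and siRNA libraries and one for 4 h libraries, and each table was analysed on its own. Intervals cover counting error over windows only. They treat the windows as independent and hold no spread between libraries.

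From these counts, CPM was computed by column totals of the 24 h libraries, and the rule was applied to each window. The windows and gene lists were chosen with earlier results of these data known. The windows closed with CytoD only, those opened with CK666 only, the motif profile, the forms of the C/EBP match, the bands of level and the C/EBP genes were added after results were seen. Fold changes came from edgeR 4.0.16 (TMM, filterByExpr, quasi-likelihood F test, Benjamini-Hochberg adjustment over all windows tested, in R 4.3.3), with calls where the log2 fold change went beyond 1 and the adjusted p was below 0.01. The 24 h fit held all 3 groups, and each 4 h fit only the 2 groups compared. DESeq2 1.42.0, other scalings, no filter, a replicate block and leaving out each library were the alternatives, and the procedure was tested on simulated data. A chosen window was matched to the 4 h window with the longest overlap of at least 1 bp.

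Named windows were the 10 with the largest margin, the 5 with the highest CytoD level, up to 10 gene starts by margin, 3 on either side of the limit, the 10 genes with the most chosen windows (at least 3 within 50000 bp), up to 3 per gene list, and at 4 h up to 3 per call direction. CArG and C/EBP windows are printed as 120 bp and gene starts as up to 250 bp upstream, the others as 300 bp. Gene starts were those of protein-coding genes in GENCODE vM21, and DNA was read from GRCm38, the same assembly as mm10, as given by RefSeq. In all 15 motifs were searched, on both strands, in the middle 500 bp. The siRNA libraries were not used. The result of 1 gene list is not reported here.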

Additional observations from a re-analysis of the deposited data

How the results depend on the processing

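The number of chosen windows, 2519, depends on the rule. It was 1635 with TMM-normalized CPM, 1693 with DESeq2 size factors, 6123, 1071 and 234 with ratio limits of 1.2, 1.6 and 2, and 3522 and 1585 with a lowest CytoD CPM of at least 0.5 and 2. Without 1 library it was 2975 to 5863, and without CytoD replicate 1, 2 or 3 it was 5421, 5863 and 5829, since fewer libraries have to meet the rule. The median log2 ratio was 1.04, 1.42 and 1.66 with the 3 ratio limits, 1.34 and 1.16 with the 2 minimum levels, and 1.2 to 1.29 without 1 library. The share at gene starts was 0.427% with a ratio limit of 2 and 1.36% to 1.74% without 1 library.

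At 4 h, DESeq2 called 23 gains in MSCs and 25 in NIH 3T3 cells, in place of 36 and 43; the cause was not tested. Without 1 library the gains were 26 to 38 in MSCs and 23 to 46 in NIH 3T3 cells, where leaving out control replicate 1 gave 23, control replicate 3 gave 28 and CK666 replicate 3 gave 23. The losses were 1 to 2 in MSCs and 10 to 16 in NIH 3T3 cells, and with an overlap of at least 50% the MSC loss was gone (0), as fewer windows were matched. The 24 h calls were 742 to 985 without 1 library, and the windows higher and lower in MSCs than in NIH 3T3 cells 763 to 797 and 98 to 108. With gene starts within 10000 bp, 12 chosen windows were at listed genes in place of 31.

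Replicate numbers did not pair the samples. Correlations of same-numbered deviations were -0.0199 to 0.028 at 24 h and -0.059 to 0.021 at 4 h. With the replicate block, 1029 chosen windows were called at 24 h, 35 gains and 1 loss in MSCs, 44 and 15 in NIH 3T3 cells, and 799 higher and 108 lower in MSCs than in NIH 3T3 cells.

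Depth limits the weakest windows, whose ratios rest on few reads, and 41 and 467 of the matched windows were too low to be tested in MSCs and NIH 3T3 cells.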
